A study of Homo sapiens with 18 samples.

Results

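The glutathione S-transferases were followed as the spots that carry 1 of 10 gene names on a human Agilent array: *GSTP1*, *GSTA1*, *GSTA4*, *GSTM3*, *GSTM4*, *GSTO1*, *GSTK1*, *MGST1*, *MGST2* and *MGST3*. Of these names, 9 were found on 49 non-control spots, which hold 13 different probes, and *GSTA1* was not analysed here. The 9 genes are part of 36204 gene names measured. The samples were 3 biological replicates, as the labels call them, of each of 6 groups. The parental cells, HT29, derive from a human adenocarcinoma of the colon and rectum. Their subline HTOXAR3 resists oxaliplatin (OXA) and is a single line that was kept in rising amounts of the drug. Each line was profiled untreated, after 24 h of OXA (10 µM in HT29, 30 µM in HTOXAR3) and after 24 h of the same OXA dose with 10 µM Curcumin. Comparisons of the treated lines therefore also compare 2 doses of OXA, and cells given Curcumin alone were not analysed here.

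Glutathione S-transferases join the tripeptide glutathione to reactive, electrophilic compounds, which makes these more soluble and lets ATP-driven pumps export them. The cytosolic classes (pi, alpha, mu, omega) and the mitochondrial kappa class are soluble, whereas the microsomal MGST proteins sit in membranes and belong to an unrelated family that also makes leukotrienes. Platinum drugs can be bound by glutathione, and *GSTP1* is the member most studied in tumours that resist them. Many of these genes can be induced by NRF2, a transcription factor that binds antioxidant response elements and is held back by KEAP1 until electrophiles such as Curcumin modify it.

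An array had from 52.4% to 63.6% of its 58717 non-control spots well above background, and arrays of the same group correlated at 0.984 or more. No member spot was saturated. Of the 10 colorectal epithelial markers, 7 were well above background on all 18 arrays (*EPCAM*, *VIL1*, *KRT8*, *KRT18*, *KRT20*, *CDH1*, *LGALS4*), while *CDX2* was so on 10 arrays, 1 of them of HTOXAR3. Of the others, *CEACAM5* was so on 16 arrays and *CDH17* on 5, all of HT29. The arrays lay on 3 slides. One of these held only 2 arrays, of untreated HT29 and OXA-treated HT29, and the other two held arrays of all 6 groups.

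Each value below is a log2 intensity after background correction and quantile normalization, or a difference of log2 group means with its standard error (SE). Levels are compared between groups for 1 probe at a time and never between genes, since probes differ in brightness. A member was called where limma gave a Benjamini-Yekutieli (BY) adjusted p below 0.05 over all names and the fold change was above 1.2. Over the 7 comparisons between groups there were 12 calls in 63 tests, while 5.53% to 18.6% of all names were called in a comparison. *MGST1* and *MGST3* were higher in both lines where Curcumin was given with OXA than in untreated cells, *MGST2* was lower in both lines after OXA and was also the lower in HTOXAR3 before treatment, and in HTOXAR3 the addition of Curcumin came with less *GSTK1* and more *GSTA4*. The calls fell on 5 members, *MGST1*, *MGST2*, *MGST3*, *GSTK1* and *GSTA4*. The other 4, *GSTP1*, *GSTO1*, *GSTM3* and *GSTM4*, were not called in any of the 7. All 12 called differences were small, from 1.27-fold to 1.58-fold.

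The first 30 bases of the 60-base probes behind the calls are shown so that it is clear which stretch of each transcript was read. Positions are those of the array's own annotation on GRCh37. *GSTK1* is given with both of its probes, which read the same calls.

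MGST1 probe, chr12:16516907-16516966 (+ strand): ttttttgttggatatggagttactctttcc
MGST2 probe, chr4:140625256-140625315 (+ strand): aatatctggacctcaatattgccaagaaac
MGST3 probe, chr1:165624688-165624747 (+ strand): catcttggttgggttaaaagtggcttgggc
GSTK1 probe, chr7:142966142-142966201 (+ strand): aagtgcctttcagagagccccaattctgct
GSTK1 second probe, chr7:142961668-142961727 (+ strand): gcaaaggactatacatggcaaatgacttaa
GSTA4 probe, chr6:52843138-52843197 (- strand): atcccagctctgtcatggtgctatctatgt

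Against the probes of all other glutathione transferase genes on the array, slid along each other without gaps, 12 of the 13 member probes shared at most 27 of 60 bases with the closest one. The exception was *GSTO1*, whose probe shared 41 of 60 bases with that of *GSTO2* and had a common run of 14 bases.

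*MGST1*, the microsomal transferase that both conjugates glutathione and reduces lipid peroxides, was the member that moved most with Curcumin. The 3 untreated HT29 arrays read 14.56, 14.62 and 14.69, the OXA arrays 14.69, 14.72 and 14.74, and the OXA plus Curcumin arrays 15.26, 15.29 and 15.30. In HTOXAR3 the untreated arrays read 14.43, 14.47 and 14.51, the OXA arrays 14.50, 14.54 and 14.63, and the OXA plus Curcumin arrays 15.05, 15.11 and 15.12. In each line all 3 arrays with Curcumin lay above all 6 arrays without it, and the untreated and OXA arrays overlapped.

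Adding Curcumin to OXA raised *MGST1* in HT29 by 0.57 (SE 0.05, 1.48-fold, adjusted p = 1.23e-04). In HTOXAR3 the rise was 0.54 (SE 0.05, 1.45-fold, adjusted p = 1.17e-04). Against untreated cells, OXA plus Curcumin raised it by 0.66 in HT29 (1.58-fold, adjusted p = 4.15e-06) and by 0.63 in HTOXAR3 (1.54-fold, adjusted p = 8.12e-06). OXA alone gave 0.09 in both lines, with adjusted p = 1 each time. The comparisons with and without Curcumin share arrays and are not independent of each other.

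*MGST3*, a microsomal member with glutathione peroxidase activity, was stepped. The 3 arrays read 13.71, 13.73 and 13.77 in untreated HT29, 13.88, 13.93 and 13.93 after OXA, and 14.15, 14.16 and 14.16 after OXA plus Curcumin. In HTOXAR3 they read 13.70, 13.71 and 13.72 untreated, 13.82, 13.82 and 13.84 after OXA, and 14.00, 14.05 and 14.11 after OXA plus Curcumin. Neither line had any overlap between its 3 groups.

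OXA plus Curcumin against untreated cells raised *MGST3* by 0.42 in HT29 (SE 0.05, 1.34-fold, adjusted p = 8.26e-05). The rise in HTOXAR3 was 0.34 (SE 0.05, 1.27-fold, adjusted p = 6.3e-04). The step made by adding Curcumin to OXA was 0.24 in HT29 (adjusted p = 0.0342) and 0.22 in HTOXAR3 (adjusted p = 0.0397), which were below the fold minimum at 1.18-fold and 1.17-fold and so were not called. OXA alone gave 0.18 in HT29 (adjusted p = 0.112) and 0.12 in HTOXAR3 (adjusted p = 1).

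A second *MGST3* probe gave 0.33 in HT29 (adjusted p = 0.00485 in a fit of all probes) and 0.27 in HTOXAR3 (adjusted p = 0.0206) for OXA plus Curcumin against untreated. The third *MGST3* probe was not well above background on any array. With the 3 probes averaged, that dim one included, the differences came to 0.24 (adjusted p = 0.893) and 0.12 (adjusted p = 1), and both calls were lost.

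*MGST2*, which makes leukotriene C4 outside blood cells besides conjugating glutathione, ran the other way with OXA. Its arrays read 12.84, 12.91 and 12.96 in untreated HT29, 12.50, 12.57 and 12.58 after OXA, and 12.70, 12.73 and 12.82 after OXA plus Curcumin. HTOXAR3 gave 12.47, 12.47 and 12.50 untreated, 11.99, 12.00 and 12.12 after OXA, and 12.23, 12.25 and 12.29 after OXA plus Curcumin. The 6 groups kept apart from each other without overlap, in the order untreated, OXA plus Curcumin and OXA within each line, with every HT29 group above every HTOXAR3 group. The narrowest gap, between the OXA arrays of HT29 and the untreated arrays of HTOXAR3, was 0.0028.

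OXA lowered *MGST2* in HT29 by a log2 difference of -0.36 (SE 0.06, 1.28-fold, adjusted p = 0.00241). In HTOXAR3 the difference was -0.44 (SE 0.06, 1.36-fold, adjusted p = 7.83e-04). Before treatment it was lower in HTOXAR3 than in HT29 by -0.43 (SE 0.06, 1.35-fold, adjusted p = 6.73e-04). Adding Curcumin to OXA gave 0.20 in HT29 (adjusted p = 0.358) and 0.22 in HTOXAR3 (adjusted p = 0.162), and neither passed. OXA plus Curcumin against untreated gave -0.16 (adjusted p = 0.542) and -0.22 (adjusted p = 0.0881), which did not pass either.

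The calls of the 3 microsomal genes did not rest on 1 array or 1 slide. With each array of a comparison left out in turn, the 4 *MGST1*, 3 *MGST2* and 2 *MGST3* calls were all kept. Within slides the OXA response of *MGST2* was -0.39, -0.41 and -0.26 in HT29 and -0.48 and -0.41 in HTOXAR3. The addition of Curcumin to OXA gave 0.56 and 0.57 for *MGST1* within slides in HT29, and 0.62 and 0.50 in HTOXAR3. In fits of the 6 arrays of a comparison alone, the calls of *MGST2* (adjusted p = 0.147 to 0.326), of *MGST3* (0.109 and 0.143) and of *MGST1* on the addition of Curcumin (0.277 and 0.12) were lost, while *MGST1* kept its calls against untreated cells.

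**Figure D1:**
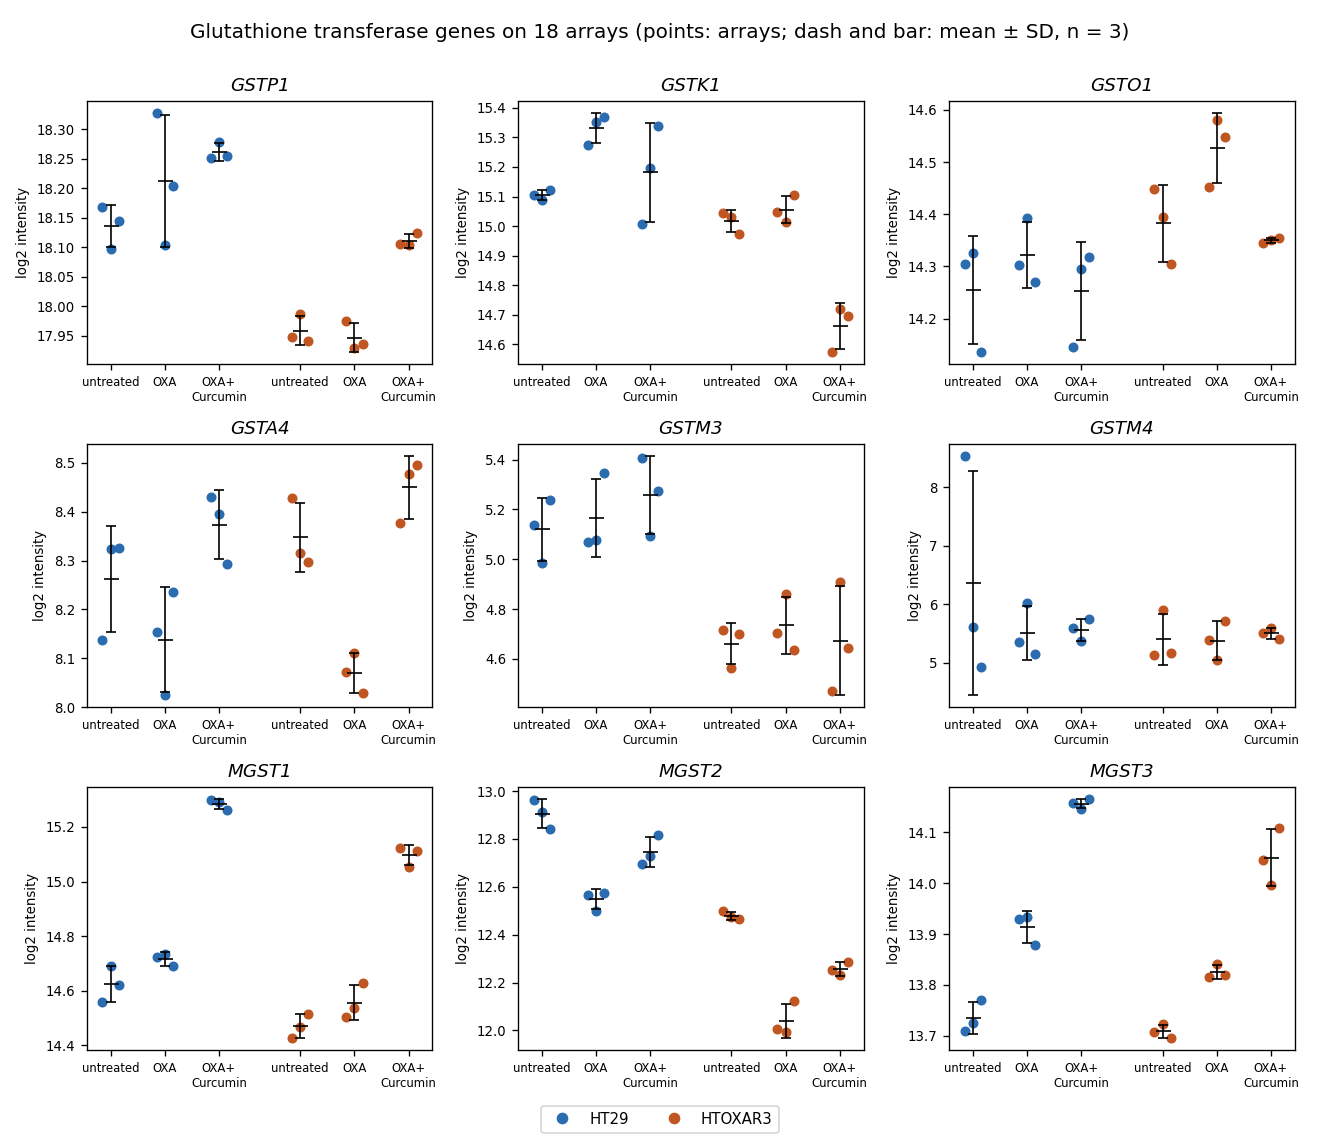
Log2 intensity of the 9 members on each of the 18 arrays, by line (colour) and treatment (horizontal axis); points are arrays, the dash and bar are the mean ± SD of 3 arrays, and each panel has its own vertical scale that does not start at 0. *MGST1* sits between 15.05 and 15.30 in the 6 arrays with Curcumin and at or below 14.74 in all others, and 1 untreated HT29 array of *GSTM4* stands at 8.53.

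*GSTK1* is the kappa class transferase of mitochondria and peroxisomes. In HTOXAR3 its arrays read 14.97, 15.03 and 15.04 untreated, 15.01, 15.05 and 15.10 after OXA, and 14.57, 14.69 and 14.72 after OXA plus Curcumin, so that the last group lay apart below the others. In HT29 they read 15.09, 15.10 and 15.12 untreated, 15.28, 15.35 and 15.37 after OXA, and 15.01, 15.20 and 15.34 after OXA plus Curcumin, where the last group overlapped both others.

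In HTOXAR3, *GSTK1* fell when Curcumin was added to OXA, by a log2 difference of -0.39 (SE 0.07, 1.31-fold, adjusted p = 0.0212). Against untreated HTOXAR3 the fall was -0.35 (SE 0.07, 1.28-fold, adjusted p = 0.0241). The same comparisons in HT29 gave -0.15 and 0.08, both with adjusted p = 1. Its second probe gave -0.48 (adjusted p = 0.0105) and -0.47 (adjusted p = 0.00577) in HTOXAR3. Both calls were lost when certain single arrays were left out. For the addition of Curcumin, leaving out any OXA array of HTOXAR3 or replicate 1 or 3 of OXA plus Curcumin took the adjusted p to between 0.0615 and 0.131. For OXA plus Curcumin against untreated, leaving out any untreated array of HTOXAR3 or replicate 1 or 3 of OXA plus Curcumin took it to between 0.0595 and 0.149. On the slides that held both groups the differences against OXA were -0.47 and -0.35, and those against untreated were -0.46 and -0.27.

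*GSTA4*, the alpha class enzyme known for clearing 4-hydroxynonenal, a product of lipid peroxidation, was called in HTOXAR3 with the adjusted p nearest to the threshold among the 12 calls. After OXA the HTOXAR3 arrays read 8.03, 8.07 and 8.11, and after OXA plus Curcumin 8.38, 8.48 and 8.50. The untreated HTOXAR3 arrays, at 8.30, 8.32 and 8.43, lay above the OXA arrays and overlapped those with Curcumin. In HT29 the OXA arrays read 8.02, 8.15 and 8.24, the OXA plus Curcumin arrays 8.29, 8.40 and 8.43, and the untreated arrays 8.14, 8.32 and 8.32. The OXA and OXA plus Curcumin arrays did not overlap in either line.

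Adding Curcumin to OXA raised *GSTA4* in HTOXAR3 by 0.38 (SE 0.07, 1.30-fold, adjusted p = 0.0249). In HT29 the difference was 0.23 (SE 0.07, adjusted p = 0.598), and with the mean of both probes it was 0.39 and called (adjusted p = 0.0325). With the replicate number as a block the HTOXAR3 value kept its size and had an adjusted p of 0.0547, and without any 1 OXA array, or without replicate 2 or 3 of OXA plus Curcumin, it had an adjusted p between 0.0706 and 0.151. A second *GSTA4* probe gave 0.52 in HTOXAR3 (adjusted p = 0.128) and 0.55 in HT29 (adjusted p = 0.132). Against untreated cells OXA plus Curcumin gave 0.10 in HTOXAR3 and 0.11 in HT29, and neither was called. OXA against untreated gave -0.28 in HTOXAR3 (adjusted p = 0.172) and -0.12 in HT29 (adjusted p = 1). This OXA difference in HTOXAR3 was called with the mean of both probes (-0.39, adjusted p = 0.0211), with the processed intensity scaled to the 75th percentile (-0.33, adjusted p = 0.0368) and with Benjamini-Hochberg (BH) adjustment (adjusted p = 0.0155).

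**Figure D2:**
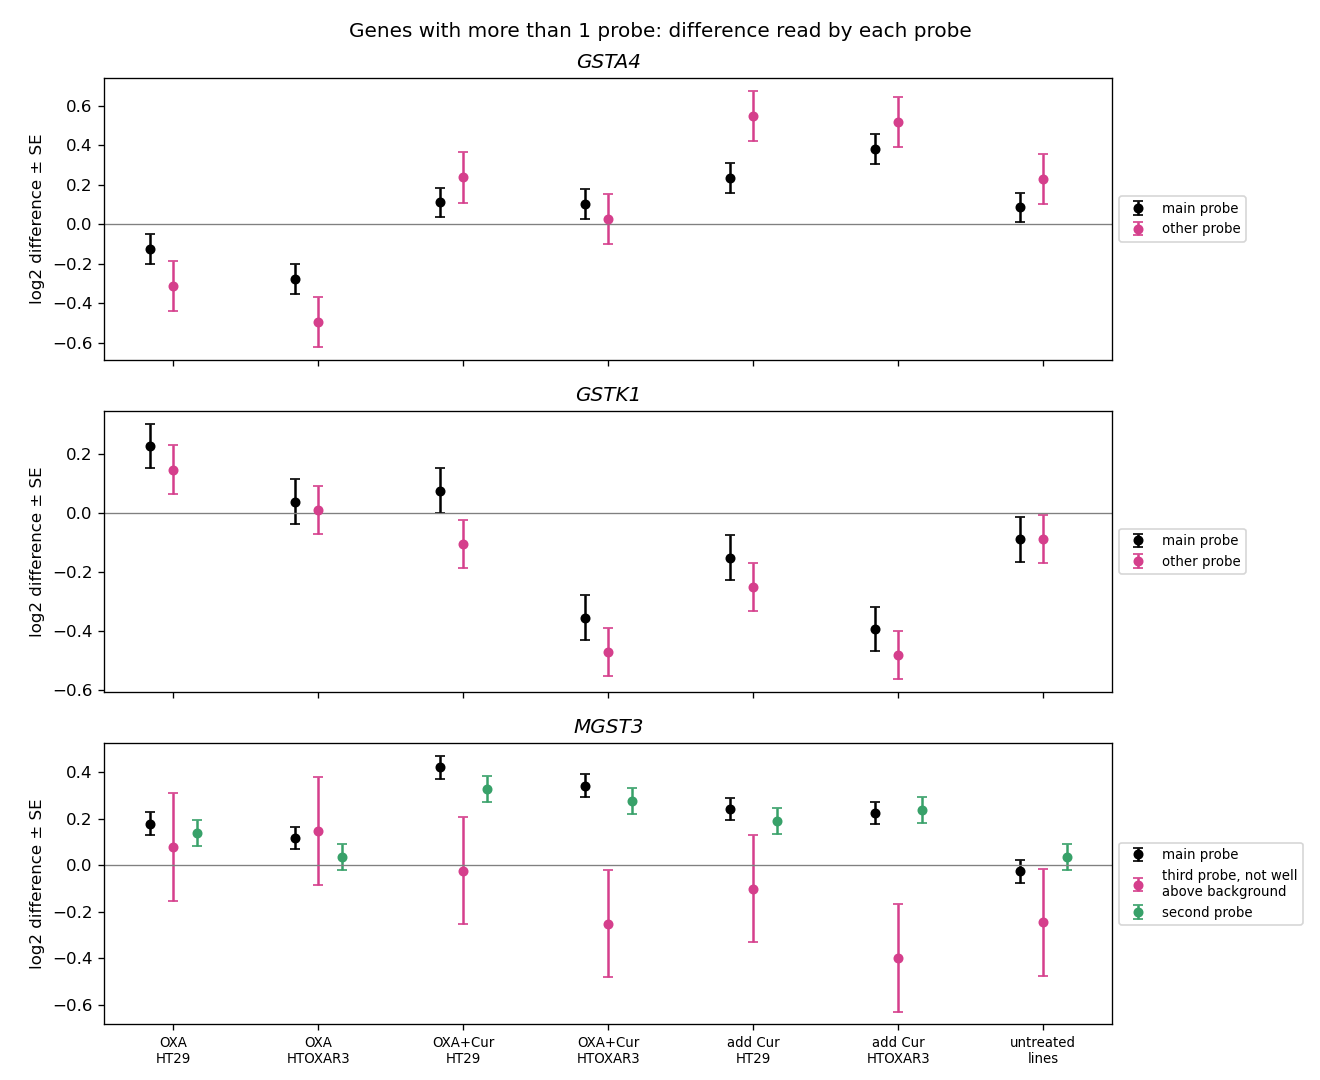
Log2 difference ± SE read by each probe of the 3 members with more than 1 probe, in the 6 treatment comparisons and between the untreated lines, from a limma fit of all probes. Both *GSTK1* probes lie below 0 in HTOXAR3 with Curcumin (-0.35 and -0.47 against untreated), and the third *MGST3* probe, not well above background, has the widest errors in its panel.

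*GSTP1*, the pi class enzyme and the form most linked to platinum resistance in other work, was not called in any comparison. Its arrays read 18.10, 18.14 and 18.17 in untreated HT29, 18.10, 18.20 and 18.33 after OXA, and 18.25, 18.25 and 18.28 after OXA plus Curcumin. HTOXAR3 gave 17.94, 17.95 and 17.99 untreated, 17.93, 17.94 and 17.97 after OXA, and 18.10, 18.10 and 18.12 after OXA plus Curcumin. The resistant line read lower than HT29 before treatment, with no overlap, by -0.18 (SE 0.06, 1.13-fold, adjusted p = 0.422, 95% interval -0.30 to -0.06). In HTOXAR3 the arrays with Curcumin did not overlap the OXA arrays either, and the difference was 0.16 (1.12-fold, adjusted p = 0.698, interval 0.04 to 0.28).

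*GSTO1*, the omega class enzyme that reduces dehydroascorbate and methylated arsenic, ranged over its group means by 0.27. Its arrays read 14.14, 14.30 and 14.32 in untreated HT29, 14.27, 14.30 and 14.39 after OXA, and 14.15, 14.30 and 14.32 after OXA plus Curcumin. HTOXAR3 gave 14.30, 14.40 and 14.45 untreated, 14.45, 14.55 and 14.58 after OXA, and 14.34, 14.35 and 14.35 after OXA plus Curcumin. The HT29 groups overlapped each other, and the OXA arrays of HTOXAR3 stood above those with Curcumin. The untreated lines differed by 0.13 (SE 0.07, adjusted p = 1). Adding Curcumin to OXA gave -0.18 in HTOXAR3 (SE 0.07, adjusted p = 1).

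*GSTM3*, a mu class enzyme, was close to background, and in untreated HTOXAR3 only 1 of 3 arrays was well above it. HT29 read 4.99, 5.14 and 5.24 untreated and HTOXAR3 4.57, 4.70 and 4.72. This difference of -0.46 (SE 0.12) did not pass with BY (adjusted p = 0.16), and it passed with BH (adjusted p = 0.0145). With the processed intensity scaled to the 75th percentile it was -0.76 and called with BY (adjusted p = 0.0469), so its size depends on the background correction and scaling. Its treatment differences all lay within 0.14 of 0 in either line.

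*GSTM4*, another mu class enzyme, had 1 array far from the rest. The untreated HT29 arrays read 4.93, 5.61 and 8.53, the highest being the first replicate, and the other 15 arrays read between 5.04 and 6.02. Without that array the difference between the untreated lines went from -0.96 to 0.13, and the OXA response of HT29 from -0.85 to 0.24. No direction is given for this gene in a comparison with untreated HT29.

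In the comparison of the untreated lines, 1 of 9 members was called (*MGST2*), where 11.5% of all names were called. The median log2 difference was -0.15 over the members and -0.03 over all names. For OXA alone 1 of 9 was called in HT29 (15.9% of all names) and 1 of 9 in HTOXAR3 (10.2% of all names), *MGST2* both times. For OXA plus Curcumin against untreated 2 of 9 were called in HT29 (18.6% of all names) and 3 of 9 in HTOXAR3 (17.5% of all names). For the addition of Curcumin to OXA 1 of 9 was called in HT29 (5.53% of all names) and 3 of 9 in HTOXAR3 (8.83% of all names). The medians for this addition were 0.09 and 0.16 over the members and -0.02 in both lines over all names.

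**Figure D3:**
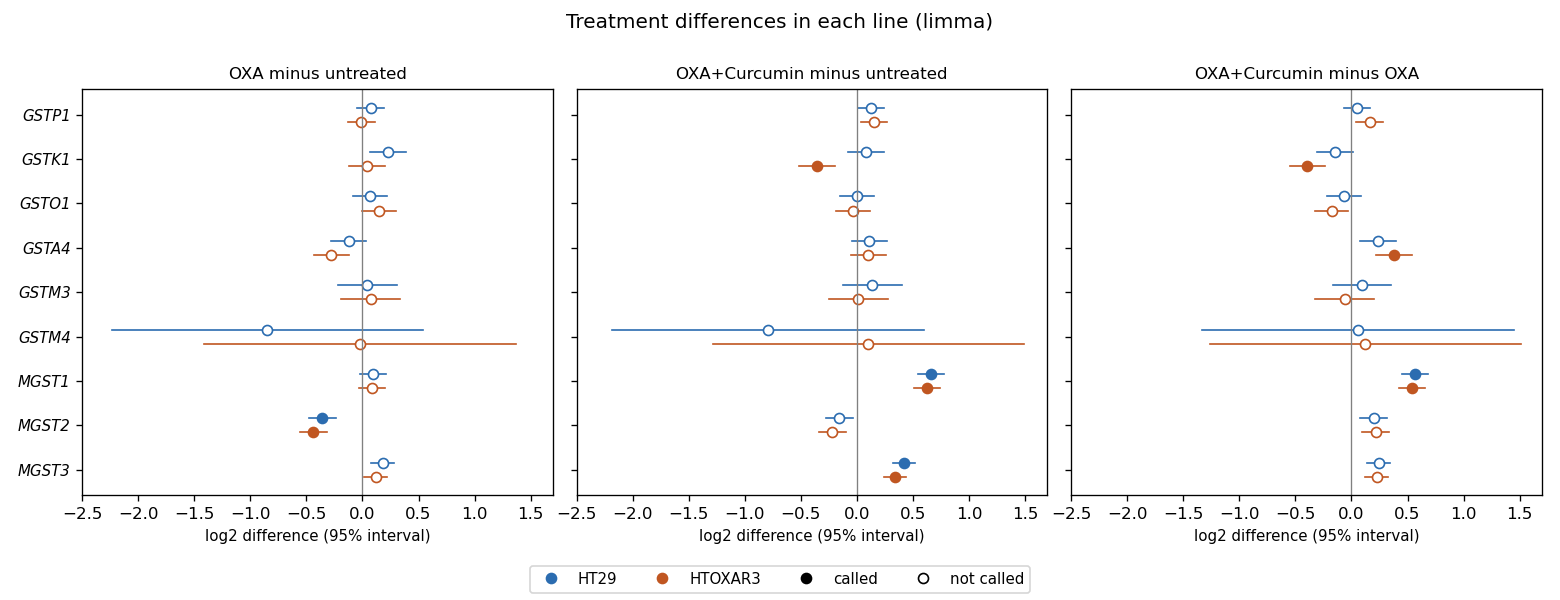
Log2 differences of the 9 members with 95% intervals from limma for OXA minus untreated, OXA plus Curcumin minus untreated and OXA plus Curcumin minus OXA, in HT29 and HTOXAR3 (filled points are called). *MGST1* lies between 0.54 and 0.66 in the 4 comparisons that contain Curcumin, and *MGST2* lies at -0.36 and -0.44 after OXA alone.

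Whether the 2 lines responded differently was tested as an interaction of line and treatment. None of the 9 members was called for the response to OXA (1.01% of all names), the response to OXA plus Curcumin (0.856%) or the addition of Curcumin (0.135%). At an unadjusted p below 0.05 the counts were 0, 1 and 1 of 9, against 13.7%, 14.4% and 9.74% of all names. With BH adjustment they were 0, 1 and 0, against 3%, 3.44% and 0.892% of all names. The member past those was *GSTK1*, whose response to OXA plus Curcumin was lower in HTOXAR3 by -0.43 (SE 0.11, BY adjusted p = 0.446, BH adjusted p = 0.0403). Its interval ran from -0.66 to -0.20.

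For *MGST1* the addition of Curcumin differed between the lines by -0.03, with an interval from -0.19 to 0.14. For *MGST2* the OXA response differed by -0.08, with an interval from -0.25 to 0.09. *MGST3* differed in its response to OXA plus Curcumin by -0.08, with an interval from -0.22 to 0.06. These intervals leave room for differences of up to about that size in either line. *GSTK1* differed between the lines in the addition of Curcumin by -0.24, with an interval from -0.47 to -0.01 (limma, unadjusted p = 0.0385). *GSTA4* differed by 0.15, with an interval from -0.08 to 0.37. Neither was called after adjustment. The calls of *GSTK1* and *GSTA4* in HTOXAR3 are thus not shown to be particular to that line.

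**Figure D4:**
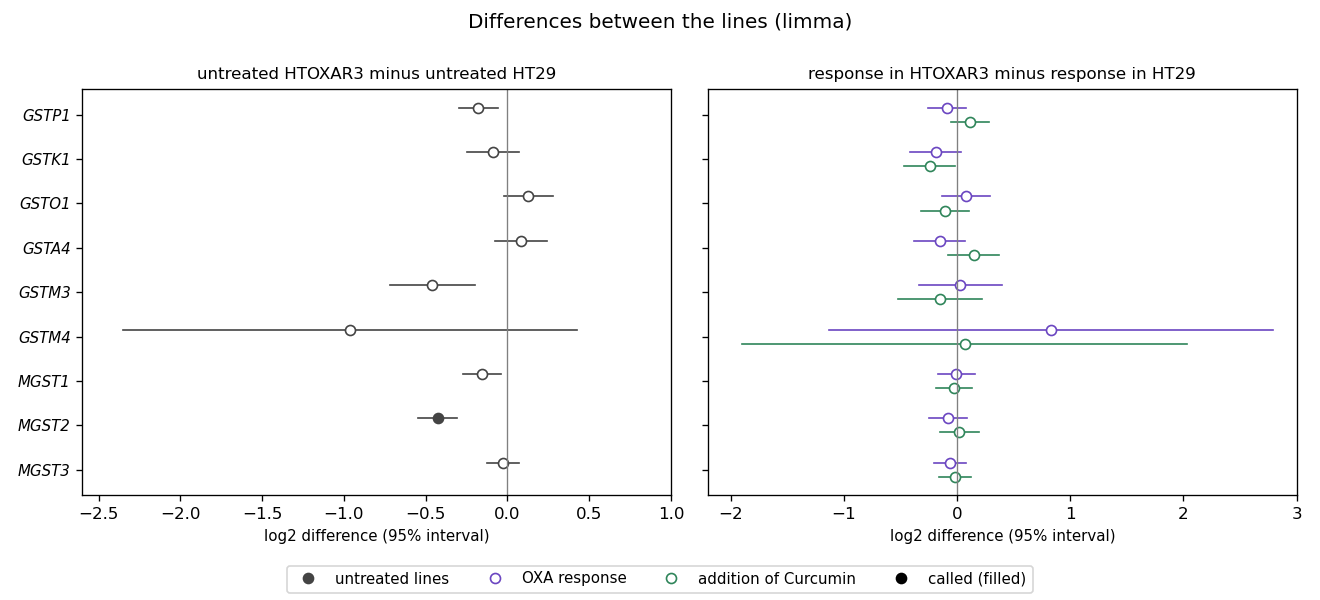
Log2 differences between the lines with 95% intervals from limma: on the left untreated HTOXAR3 minus untreated HT29, on the right the response to OXA and the addition of Curcumin in HTOXAR3 minus the same in HT29. *MGST2* at -0.43 is the filled, called point, and the wide *GSTM4* intervals go with the array at 8.53.

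Over the 18 arrays and among 17399 other names that were well above background on all of them, the patterns most like that of *MGST1* were those of *BLVRB* (Pearson r = 0.986), *PTGR1* (0.984) and *GABARAPL1* (0.979). For *MGST2* they were *TIMM8B* (0.979), *TMEM223* (0.976) and *EIF4E2* (0.976). For *GSTM4* they were *MAP7D2* (0.945), *BC039705* (0.898) and *LINC00423* (0.883), with the array at 8.53 among the points. The points share arrays, slides and groups.

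The rest of the glutathione system was read from 5 lists. On the addition of Curcumin to OXA the list of glutathione synthesis and recycling had 7 of 18 genes called higher and 1 lower in HT29, and 8 higher and 1 lower in HTOXAR3. Over all names 3.14% were called higher and 2.39% lower in HT29, and 4.43% and 4.41% in HTOXAR3. The list's median difference was 0.28 and 0.25. *SLC7A11*, the cystine carrier that feeds glutathione synthesis, rose by 1.15 in HT29 (adjusted p = 4.9e-05), where OXA alone had lowered it by -0.87 (adjusted p = 1.04e-04). Its difference between OXA plus Curcumin and untreated HT29 was 0.28 (adjusted p = 0.499). *SLC3A2*, its partner chain, rose by 0.67 in HT29 and 0.74 in HTOXAR3. *GSR*, which regenerates reduced glutathione, rose by 0.75 and 0.86. *CHAC1*, an enzyme that degrades glutathione and a marker of amino acid stress, rose by 1.34 and 1.06, after a fall of -0.64 with OXA alone in HT29 (adjusted p = 0.0011). Other genes of the list read lower with Curcumin. *CHAC2* gave -0.30 and -0.14 and was not called. *GGCT* had group means of 15.01 after OXA and 14.58 after OXA plus Curcumin in HT29, and of 14.67 and 14.28 in HTOXAR3.

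Of 8 genes of the NRF2 pathway, 5 were called higher and 0 lower on the addition of Curcumin in each line. Shares over all names were 3.14% higher and 2.39% lower in HT29, and 4.43% and 4.41% in HTOXAR3. *NFE2L2* (the gene of NRF2), *KEAP1* and *BACH1* were not called. The median log2 difference of the list was 0.50 in HT29 and 0.57 in HTOXAR3. *HMOX1*, heme oxygenase 1, had group means of 11.95, 9.98 and 12.87 in untreated, OXA and OXA plus Curcumin HT29, and of 12.64, 10.79 and 13.85 in HTOXAR3. Adding Curcumin raised it by 2.89 (adjusted p = 4.46e-08) and 3.06 (adjusted p = 1.38e-08), from a level that OXA had lowered by -1.97 and -1.86. *SRXN1*, sulfiredoxin, rose by 0.97 and 0.92, and *NQO1*, a quinone reductase, by 0.59 and 0.76. OXA alone had lowered *NQO1* by -0.74 and -0.57, and OXA plus Curcumin against untreated cells gave -0.15 (adjusted p = 1) and 0.19 (adjusted p = 0.468), which did not pass. The spot named *NFE2L2* was not well above background on any array.

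**Figure D5:**
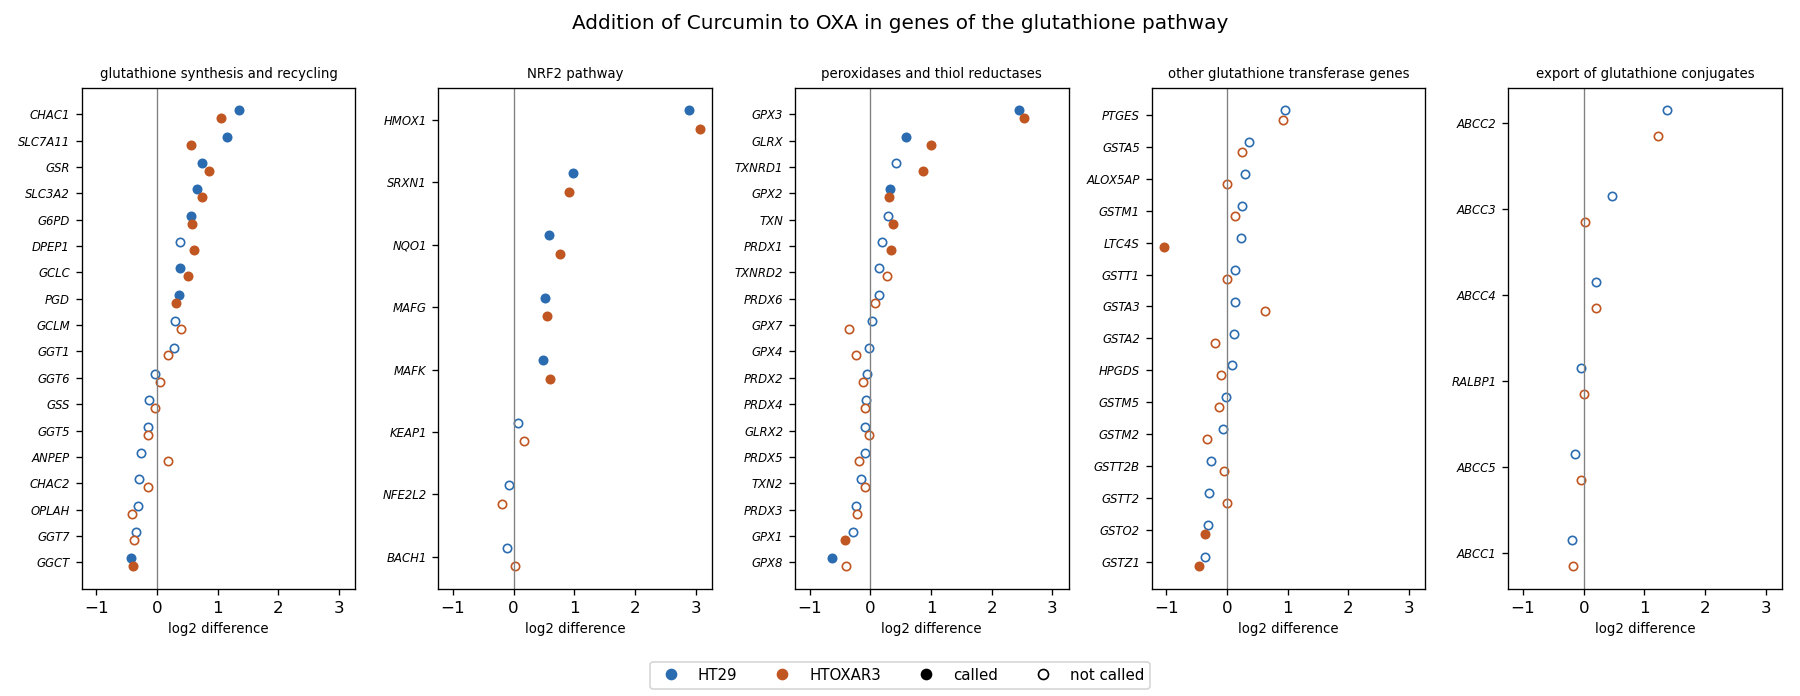
Log2 difference made by adding Curcumin to OXA for every gene of the 5 lists, in HT29 and HTOXAR3 (filled points are called by limma). *HMOX1* lies at 2.89 and 3.06 and *GPX3* at 2.46 and 2.53, while no gene of the export list is filled.

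Among 18 peroxidases and thiol reductases, 3 were called higher and 1 lower in HT29 on the addition of Curcumin (3.14% and 2.39% of all names). In HTOXAR3 6 were called higher and 1 lower (4.43% and 4.41% of all names). The list's median difference was 0.01 in HT29 and -0.06 in HTOXAR3. *GPX3*, the secreted glutathione peroxidase, rose by 2.46 and 2.53 (adjusted p = 1.75e-08 and 7.49e-09). *GLRX*, glutaredoxin, rose by 0.59 and 1.00. *TXNRD1*, thioredoxin reductase, rose by 0.86 in HTOXAR3 (adjusted p = 0.00309), and *GPX1* fell there by -0.42 (adjusted p = 0.00577).

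Of 15 other transferase and related genes, 4 were called between the untreated lines, all of them with HTOXAR3 the higher, as were 6.26% of all names. The largest of these differences was that of *LTC4S*, leukotriene C4 synthase, at 1.47 (adjusted p = 4.58e-05). *GSTT2*, a theta class enzyme, was higher by 1.40 (adjusted p = 7.84e-07). Its near copy *GSTT2B* was called higher by a smaller difference (adjusted p = 6.03e-05), as was *GSTO2*, an omega class enzyme, by 0.50 (adjusted p = 0.00153). The signals of *GSTT2* and *GSTT2B* are uncertain, since a probe of one may also catch the other. A *GSTO2* probe shares 41 of 60 bases with that of *GSTO1*. *GSTT2* also rose with OXA, by 1.23 in HT29 (adjusted p = 2.79e-06) and 0.67 in HTOXAR3 (adjusted p = 0.00153). *GSTZ1*, the zeta class enzyme of tyrosine breakdown, rose with OXA by 0.63 (adjusted p = 2.33e-04) and 0.40 (adjusted p = 0.0172). On the addition of Curcumin the list had 0 called in HT29 (5.53% of all names). In HTOXAR3 it had 0 higher and 3 lower, namely *LTC4S*, *GSTZ1* and *GSTO2* (4.43% and 4.41% of all names).

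Pumps that carry glutathione conjugates out of the cell had 3 of 6 genes called higher with OXA in HT29, where 8.33% of all names were. In HTOXAR3 a single gene, *ABCC1*, was called (5.31% of all names were higher). On the addition of Curcumin limma called 0 in either line (5.53% of all names in HT29, 8.83% in HTOXAR3). *ABCC1*, the founding member, rose with OXA by 0.32 in HT29 (adjusted p = 0.0212) and 0.35 in HTOXAR3 (adjusted p = 0.0166). Between the untreated lines 1 of the 6 was called higher in HTOXAR3 and 2 lower, where 6.26% and 5.28% of all names were. *ABCC4* was lower by -1.02 (adjusted p = 1.93e-05), *ABCC3* lower by -0.59 (adjusted p = 0.0281) and *ABCC5* higher by 0.77 (adjusted p = 1.09e-04).

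Of 5 fibroblast and 3 endothelial markers, limma called 0 on the addition of Curcumin in either line. The median log2 differences in HT29 and HTOXAR3 were -0.05 and -0.11 over the fibroblast markers and 0.06 and -0.27 over the endothelial markers. Of the fibroblast markers, *COL1A2* and *COL3A1* were above background on 0 arrays, *DCN* on 1, *LUM* on 5 and *COL1A1* on 10. Of the endothelial markers, *PECAM1* was above background on 4 arrays and *CDH5* and *VWF* on all 18. The leukocyte markers *PTPRC*, *CD14* and *CD68* were also above background on all 18 arrays. *CD68* had group means of 6.65 after OXA and 7.84 after OXA plus Curcumin in HT29, and of 6.79 and 8.18 in HTOXAR3. *CD14* had means of 10.22 and 10.74 in HT29 and of 10.90 and 10.93 in HTOXAR3. The part of these genes in the results on the members was not tested.

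Promoter windows from RefSeq (GRCh38.p14, 250 bases before and 50 from the start site) were found for 8 of the 9 members, 10 windows in all. They are shown because the members that rose with Curcumin and those that did not can be set beside the letters of the antioxidant response element, searched as TGACNNNGC on both strands. A match was present in 13.3% of 35116 promoters. Among the members it was found in 1 window each of *GSTP1*, *GSTA4*, *GSTO1* and *MGST1*. The last 120 bases before the start site of *GSTP1*, *GSTA4*, *MGST3* and 1 of the 3 *MGST1* windows follow, with any match in capitals.

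GSTP1, chr11:67583692-67583811 (+ strand): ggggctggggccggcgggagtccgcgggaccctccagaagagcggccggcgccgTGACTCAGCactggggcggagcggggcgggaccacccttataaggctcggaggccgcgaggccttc
GSTA4, chr6:52995285-52995404 (- strand): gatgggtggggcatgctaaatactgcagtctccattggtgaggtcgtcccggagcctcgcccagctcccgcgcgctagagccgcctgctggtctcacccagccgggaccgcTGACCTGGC
MGST3, chr1:165631114-165631233 (+ strand): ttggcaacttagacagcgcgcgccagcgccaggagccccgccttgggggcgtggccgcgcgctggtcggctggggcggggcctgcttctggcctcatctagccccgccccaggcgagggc
MGST1, chr12:16347525-16347644 (+ strand): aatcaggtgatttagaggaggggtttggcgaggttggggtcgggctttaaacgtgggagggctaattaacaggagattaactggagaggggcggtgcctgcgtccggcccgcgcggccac

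The *GSTP1* match starts 66 bases before the start site and overlaps an AP-1 motif (TGANTCA, in 7.71% of promoters), and this gene was not called. *GSTA4*, called on the addition of Curcumin in HTOXAR3, has its match in the last 9 bases before the start site. *MGST3*, called with OXA plus Curcumin, has no match in its window, and neither has *GSTK1*, called lower in HTOXAR3. *MGST1* has its match in another of its 3 windows, after the start site. The 2 *GSTO1* matches lie between 226 and 153 bases before the start. A match is a run of letters and not a shown binding site, and windows without one say nothing of elements elsewhere.

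The 3 matches outside those stretches are printed with their neighbouring bases, again with the match in capitals.

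MGST1, match in another window: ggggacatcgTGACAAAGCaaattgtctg
GSTO1, first match: ggcggagggaTGACTGAGCatttataact
GSTO1, second match: cgagatgcttTGACACAGCcccttaagat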

How the data were processed

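Total RNA of 18 samples was labelled with Cy3 and hybridised to 1-colour arrays. The authors deposited for each array the Feature Extraction output, with a mean intensity per spot and the local background's median, not normalized between arrays, and a processed intensity with background subtracted, used as an alternative. A deposited table of processed values has rows without names and was not used here. Flags for outliers, saturation and background came with the same files.

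The intensities were corrected with normexp (offset 0, since the methods name none), control spots were left out and arrays were quantile normalized. Outlier-flagged spots were then set to missing and replicate spots averaged. The probe with the highest mean stood for each name (50599 probes, 36204 names). A limma 3.58.1 model with 6 group terms was fitted to all 18 arrays in R 4.3.3 with lmFit and eBayes, p-values were BY adjusted, and the threshold was 0.05 with a fold above 1.2. Figures were drawn with matplotlib 3.10.9 in Python 3.11.15. The script was tested on simulated data. Having 3 arrays per group limits the precision.

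The members and gene lists were chosen with earlier results of these data known. The members are all named in every comparison, and up to 4 called genes of each other list with the largest change, if well above background on every array compared. Genes with the most alike pattern are named for the 3 members with the largest range of group means. Fibroblast, endothelial and colorectal markers were listed too, and of a list of leukocyte markers only the levels of some genes are given here. The labels do not describe a pairing by replicate number. Deviations of same-numbered arrays from their group means correlated above 0.1 in every pair for the OXA response in HT29 (0.117 to 0.242) and the addition of Curcumin in HTOXAR3 (0.109 to 0.195), and not in the other comparisons. The replicate, the slide, each array left out, background, scaling, probe choice, array weights, BH and a fit of the compared groups alone were tried as alternatives. The coding or untranslated status of the probes was not analysed here, since the probes were not placed on transcripts.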

Additional observations from a re-analysis of the deposited data

Results flagged for a closer look

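The response of *LTC4S*, leukotriene C4 synthase, to OXA plus Curcumin differed between the lines by -1.24 (SE 0.21, limma, BY adjusted p = 0.0484), as a test of line by treatment. Its level fell in HTOXAR3 from a group mean of 6.87 untreated to 5.28 (a difference of -1.59, adjusted p = 1.63e-05), and in HT29 it went from 5.40 to 5.05 (-0.35, adjusted p = 1). With any 1 of the 12 arrays compared left out, the difference ran from -1.36 to -1.09, and it was called in 1 of the 12 cases. It was not called with the mean of all probes (adjusted p = 0.0559), with normexp scaled to the 75th percentile (adjusted p = 0.105) or in a fit of the compared groups alone (adjusted p = 0.0929).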

How the results depend on the processing

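None of the 12 called differences of members reversed under any alternative. A fit of the compared groups alone, which leaves fewer arrays to estimate the spread, called 0 members between the untreated lines, 0 and 0 for OXA in HT29 and HTOXAR3, 1 and 1 for OXA plus Curcumin, and 0 and 0 for the addition of Curcumin. The mean of all probes gave 1 for OXA plus Curcumin in HT29 and 2 in HTOXAR3. It also gave 2 for OXA in HTOXAR3 and 2 for the addition of Curcumin in HT29. BH gave 2 between the untreated lines, 2 for OXA in HTOXAR3 and 1 for the line difference in the response to OXA plus Curcumin. The processed intensity scaled to the 75th percentile gave 2 between the untreated lines and 2 for OXA in HTOXAR3. Under it the median over all names for OXA in HTOXAR3 was -0.192, against 0.00852 as reported, and called members kept their direction. With 1 array left out, 1 or 2 members were called for the addition of Curcumin in HTOXAR3, where *GSTK1* and *GSTA4* lost their calls without OXA replicate 1, 2 or 3 or without OXA plus Curcumin replicate 3. With the replicate number as a block, the call of *GSTA4* on the addition of Curcumin in HTOXAR3 was lost (adjusted p = 0.0547), and no other call of a member changed. All 25 differences of called members within a slide had the direction of the pooled value. The third *MGST3* probe and *GSTM3* are limited by signal near background, and without the first untreated HT29 array *GSTM4* turned from -0.96 to 0.13 between the untreated lines.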
